A study of Mus musculus with 2 samples.

Results

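Tbx3 (ENSMUSG00000018604), a T-box transcription factor gene, was read in single mouse cells as 1 of 33696 genes in a table of molecule counts. Every droplet barcode called a cell, with at least 1000 genes detected and at most 10% of its unique molecular identifiers (UMIs, each standing for 1 captured molecule) on mitochondrial genes, was kept, which left 16841 of 21593 called cells. In each kept cell the Tbx3 UMIs were set beside those of Zfp42, a marker of naive pluripotent cells, and beside the summed UMIs of Mixl1, Mesp1 and Rspo3, which mark cells entering mesoderm. Tbx3 itself had been chosen for its levels in these cells, so the levels below are a description and carry no test. Of the kept cells, 1611 held a Tbx3 UMI. The 2 samples in the labels are embryoid bodies on day 2, which are aggregates of differentiating cells, and the untreated mouse epiblast stem cells they were made from, pluripotent cells of the primed state grown as a line named Delmix. No allele, agent or culture count is given for either, and there is 1 sample per group. The counts lie in 1 pooled matrix whose cell tags match neither sample's labels, so no value belongs to one sample, and embryoid bodies and epiblast stem cells were not compared. Kept cells had a median of 6473 UMIs, with a range of 1265 to 34748.

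Tbx3 acts mainly as a repressor of transcription and belongs to the T-box family, named for the DNA-binding domain it shares with the mesoderm gene T (brachyury). In mouse embryonic stem cells it is known as a factor of the naive state that is kept on by leukaemia inhibitory factor (LIF) signalling and that helps to hold off differentiation. Later it is known from extraembryonic and lateral plate mesoderm and from limb, heart conduction tissue and mammary gland. In mouse the gene also makes isoforms that differ by an extra exon within the T-box.

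That exon is shown because it is the sequence that tells the Tbx3 isoforms apart. In the GENCODE annotation of the GRCm38 build it is exon 3 of transcript Tbx3-201, 60 bases at chr5:119675243-119675302 on the plus strand, in capitals below between the 12 coding bases that flank it in the spliced transcript on each side. Of the annotated coding transcripts, 1 holds it and 2 do not.
Tbx3 exon 3: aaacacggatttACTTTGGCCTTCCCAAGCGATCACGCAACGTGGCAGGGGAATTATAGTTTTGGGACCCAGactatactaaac
The UMIs were read from the 3′ ends of transcripts, so each Tbx3 value below is the sum over isoforms with and without this exon. No 31-base word from the last 500 bases of the 3 coding transcripts occurred in a transcript of another gene, among 633 such words. The antisense gene Tbx3os1 overlaps Tbx3 only at its 5′ side, away from the counted end. The build used by the authors is not given in the sources used here.

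Tbx3 was sparse. Kept cells held 2238 Tbx3 UMIs, or 18.5 CPM (a depth-scaled level, the gene's UMIs over all UMIs of the same cells; exact Poisson 95% interval 17.7 to 19.3), and 6954 of the 26873 genes with a UMI had more. A Tbx3 UMI was seen in 9.57% of kept cells (exact binomial 95% interval 9.13 to 10.0). Most of those cells held a single molecule: 1204 cells had 1 UMI, 262 had 2 and 145 had 3 or more, with a highest count of 10. Here and below, intervals of levels, shares and ratios cover counting error only, since the pooled library is 1 sample and has no replicate.

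Tbx3 was highest in cells with mesoderm marker UMIs, intermediate in cells rich in Zfp42 and lowest in cells with neither. The mesodermal range was set as at least 2 UMIs of Mixl1, Mesp1 and Rspo3 together with at most 1 of Zfp42. Its 455 cells held 302 Tbx3 UMIs, a level of 99.7 CPM (88.8 to 112). The naive range was set as at least 4 Zfp42 UMIs with none of the mesoderm markers. Its 4284 cells held 1110 Tbx3 UMIs, a level of 29.6 CPM (27.9 to 31.4). The 9456 cells of neither kind, with at most 1 Zfp42 UMI and no mesoderm marker UMI, held 440 Tbx3 UMIs at 7.34 CPM (6.67 to 8.06). Cells between these ranges, 2607 in number, had 17.7 CPM (15.9 to 19.7). These are ranges of UMI counts and not cell types, and the counting intervals of the 4 groups did not overlap.

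**Figure D1:**
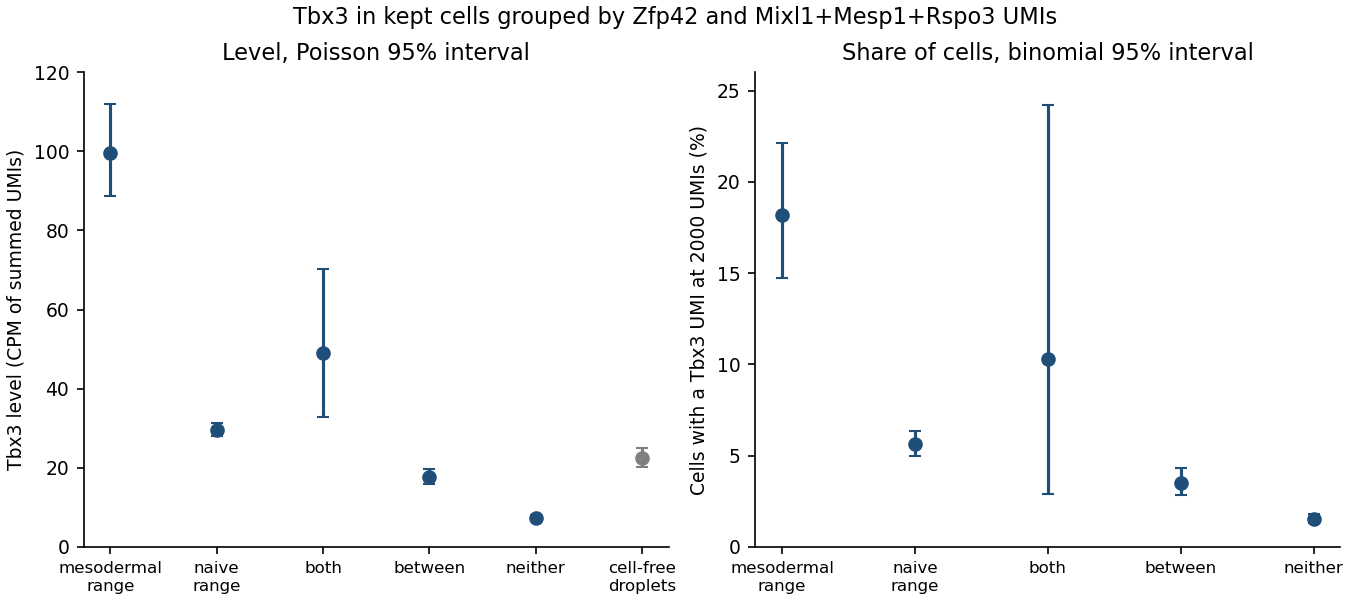
Tbx3 level (left, CPM of summed UMIs with exact Poisson 95% intervals) and share of cells with a Tbx3 UMI after thinning each cell to 2000 UMIs (right, percent with exact binomial 95% intervals) in cells grouped by Zfp42 and Mixl1, Mesp1 and Rspo3 UMIs. The mesodermal range stands at 99.7 CPM and 18.2%, the naive range at 29.6 CPM and 5.62%, and cells of neither kind at 7.34 CPM and 1.53%; the cells with both kinds of marker are only 39.

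On the log2(CPM + 1) scale the mesodermal range lay 3.59 above cells of neither kind (interval 3.39 to 3.80) and 1.72 above the naive range (1.53 to 1.90). The naive range lay 1.88 above cells of neither kind (1.73 to 2.02). Among genes with at least 20 CPM in either group, 367 of 7324 (5.01%) exceeded cells of neither kind by 2-fold or more in the mesodermal range, and 164 of 7019 (2.34%) did so in the naive range. Tbx3 was among both, which its choice had fixed. The share of cells with a Tbx3 UMI was 36.0% in the mesodermal range (31.6 to 40.6), 18.5% in the naive range (17.4 to 19.7) and 3.92% in cells of neither kind. The ranges differed in depth, with medians of 5889 UMIs in the mesodermal range, 7664 in the naive range and 5927 in cells of neither kind. After each cell was thinned to 2000 UMIs, the shares were 18.2% in the mesodermal range (14.7 to 22.1), 5.62% in the naive range (4.95 to 6.35) and 1.53% in cells of neither kind (1.29 to 1.80). The order of the groups was the same with and without thinning.

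Cells with several Tbx3 molecules occurred in both ranges and made up a larger share of the mesodermal range. There, 33 of 455 cells had 3 or more UMIs and carried 42.7% of that range's Tbx3 UMIs. In the naive range 73 of 4284 cells had 3 or more and carried 22.5%. Among cells of neither kind 11 of 9456 had 3 or more and carried 8.41%. Of the 16 cells with 5 or more Tbx3 UMIs, 7 lay in the mesodermal range and 7 in the naive range, and the cell with 10 UMIs was in the mesodermal range. The 39 cells with both at least 4 Zfp42 UMIs and at least 2 mesoderm marker UMIs had 48.9 CPM (32.8 to 70.2). Scrublet, which scores barcodes likely to hold a pair of cells, called 87.2% of those 39 cells doublets, and their median depth was 14654 UMIs. The same caller marked 11% of the mesodermal range, 18.3% of the naive range and 8.16% of cells of neither kind.

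Free RNA in the droplets also carried Tbx3. In 72027 uncalled barcodes of 150 to 300 UMIs, 351 Tbx3 UMIs gave 22.5 CPM (20.2 to 25). That level was above the one in cells of neither kind and below the one in the naive range. These droplets averaged 217 UMIs and 0.00487 Tbx3 UMIs each, whereas cells averaged 0.664 Tbx3 UMIs in the mesodermal range, 0.259 in the naive range and 0.0465 among cells of neither kind. As cells of a type not known for the gene, the 80 cells of a macrophage-like cluster held 1 Tbx3 UMI in all, in 1.25% of cells (0.0316 to 6.77) at a median depth of 3980 UMIs.

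Within cells lacking mesoderm marker UMIs, Tbx3 was higher in each bin of more Zfp42 from 2 to 3 UMIs upward. It was 7.12 CPM in 6449 cells with no Zfp42 UMI and 7.78 CPM in 3007 cells with 1, which are levels within each other's counting error. It was 13.8 CPM (12 to 15.9) at 2 to 3 Zfp42 UMIs and 24.1 CPM (21.6 to 26.8) at 4 to 7. It was 30.8 CPM (28.2 to 33.6) at 8 to 15 and 38.6 CPM (34 to 43.7) in 595 cells with 16 or more. Depth differs along these bins, and thinned to 2000 UMIs the share of cells with a Tbx3 UMI was 1.34%, 1.93%, 2.76%, 4.97%, 6.03% and 6.39% in the same order.

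With the mesoderm markers, Tbx3 was higher at 1 UMI than at 0 and higher again at 2 to 3. Among cells with at most 1 Zfp42 UMI, those with no UMI of the markers had 7.34 CPM of Tbx3, those with a single UMI of Mixl1, Mesp1 or Rspo3 had 29.4 CPM (23.7 to 36.0), and those with 2 to 3 had 93.2 CPM (77.9 to 111). Cells with 4 to 7 had 99.9 CPM (82.1 to 120), and the 69 cells with 8 or more had 117 CPM (89.2 to 150). From 2 UMIs upward the counting intervals overlapped. The thinned shares of those 3 bins were 15.3%, 19.9% and 23.2%.

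**Figure D2:**
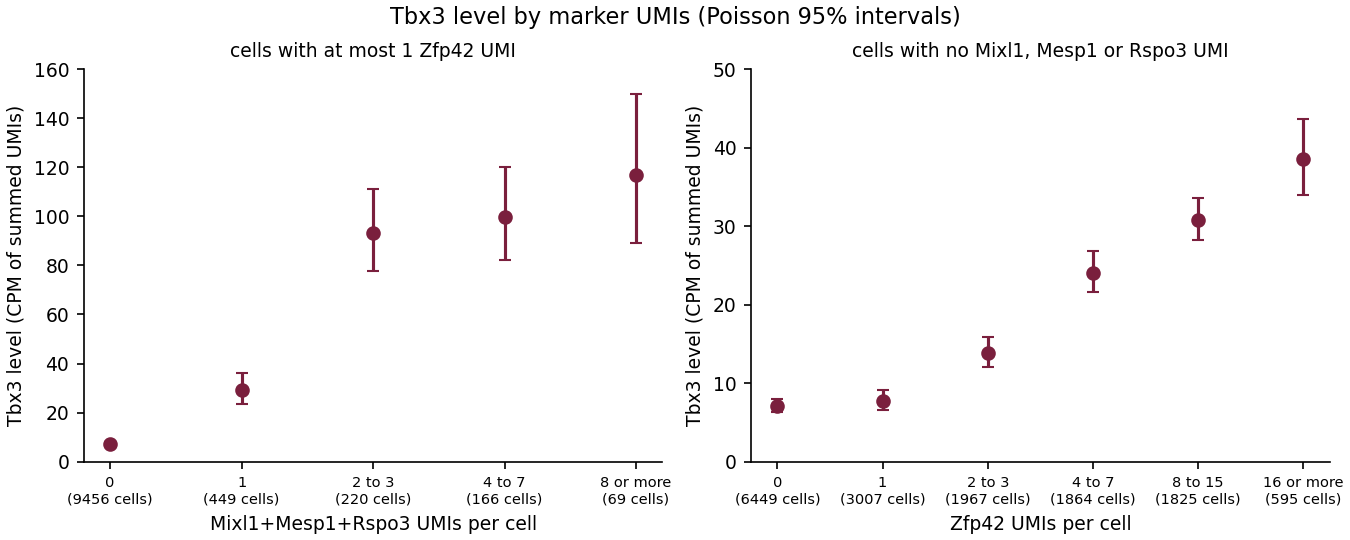
Tbx3 level (CPM of summed UMIs with exact Poisson 95% intervals) by the number of mesoderm marker UMIs per cell (left) and of Zfp42 UMIs per cell (right), with the number of cells under each bin. Tbx3 stands at 93.2 CPM or more in every bin from 2 mesoderm marker UMIs, and reaches 38.6 CPM in the highest Zfp42 bin.

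The thresholds of the ranges fell at different places on these curves. Cells just inside the naive range, with 4 Zfp42 UMIs, had 14.9 CPM of Tbx3 (11.4 to 19.1), and cells just outside, with 3, had 14.8 CPM (11.7 to 18.5). Cells just inside the mesodermal range, with 2 marker UMIs, had 79.9 CPM (62.4 to 101), against 29.4 CPM in cells with 1. At the filter on genes, the 88 kept cells within 100 genes above the minimum held 5 Tbx3 UMIs, and the 85 called cells within 100 genes below it held 3. Cells with 9 to 10% mitochondrial UMIs had 33.2 CPM (21.5 to 49.0), and those with 10 to 11%, which were left out, had 25.5 CPM (15.1 to 40.3).

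Among the mesoderm markers, over the whole mesodermal range, Tbx3 was highest in cells with Mixl1, a homeobox gene of the primitive streak. The 166 cells of the mesodermal range with a Mixl1 UMI had 161 CPM of Tbx3 (139 to 185), against 57.1 CPM (46.5 to 69.3) in the 289 without. For Mesp1, a factor of the earliest cardiac and head mesoderm, Tbx3 was at 108 CPM in cells with a UMI (88.7 to 131) and 95.6 CPM in cells without (82.6 to 110), which overlap. For Rspo3, a secreted amplifier of WNT signalling, it was at 91.6 CPM with a UMI (80.1 to 104) and 138 CPM without (108 to 173). The 205 cells that entered the range on Rspo3 alone held 63 Tbx3 UMIs, an interval of 38.4 to 63.9 CPM, and the 173 cells with Rspo3 plus Mixl1 or Mesp1 had 134 CPM (114 to 156).

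The cells were also grouped into 12 clusters by their whole transcriptomes. Tbx3 was not among the 2000 variable genes that built them. Cluster 7, led by Prdm6, Cyp26a1, Fgf10, Mesp1, Mixl1 and Kdr, was called mesoderm-like, since 12 of 18 primitive streak and nascent mesoderm markers were at least 2-fold higher in it than in the other cells. Its 660 cells held 514 Tbx3 UMIs at 113 CPM (104 to 123), 23.0% of all Tbx3 UMIs. Scrublet marked 20.2% of them as doublets. Cluster 1, led by Zfp42, Mylpf and Esrrb, was called naive-like, with 14 of 16 naive markers higher by the same measure, Tbx3 itself being one of the 16. It held 4515 cells and 1061 Tbx3 UMIs at 30.6 CPM (28.8 to 32.5), 47.4% of the total.

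Cluster 9, led by the X-linked homeobox genes Rhox6 and Rhox9, had a Tbx3 level of 26.4 CPM (20.7 to 33.0), which overlapped that of the naive-like cluster. Cluster 6 was shallow, at a median of 2766 UMIs per cell, 8.04% of them mitochondrial, and followed with 18.4 CPM (13.4 to 24.6). The fibroblast-like cluster 8 had 12.9 CPM (9.93 to 16.5) and the cluster led by Eif1ad10 and Zscan4d, genes of the 2-cell embryo, had 10.2 CPM (5.69 to 16.8). The lower levels lay in cluster 5, led by the keratin genes Krt8 and Krt19, with 8.26 CPM, in cluster 3, led by Hs3st4 and Ptprt, with 7.44 CPM, and in cluster 2, led by Car4 and Pou3f1, with 6.67 CPM. The counting intervals of those 3 clusters overlapped. Cluster 4, led by Meis2 and Fgf8, was the lowest of the clusters of at least 100 cells, with 3.99 CPM (2.95 to 5.27). The 28 cells of cluster 12 held no Tbx3 UMI, which allows up to 30.9 CPM.

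**Figure D3:**
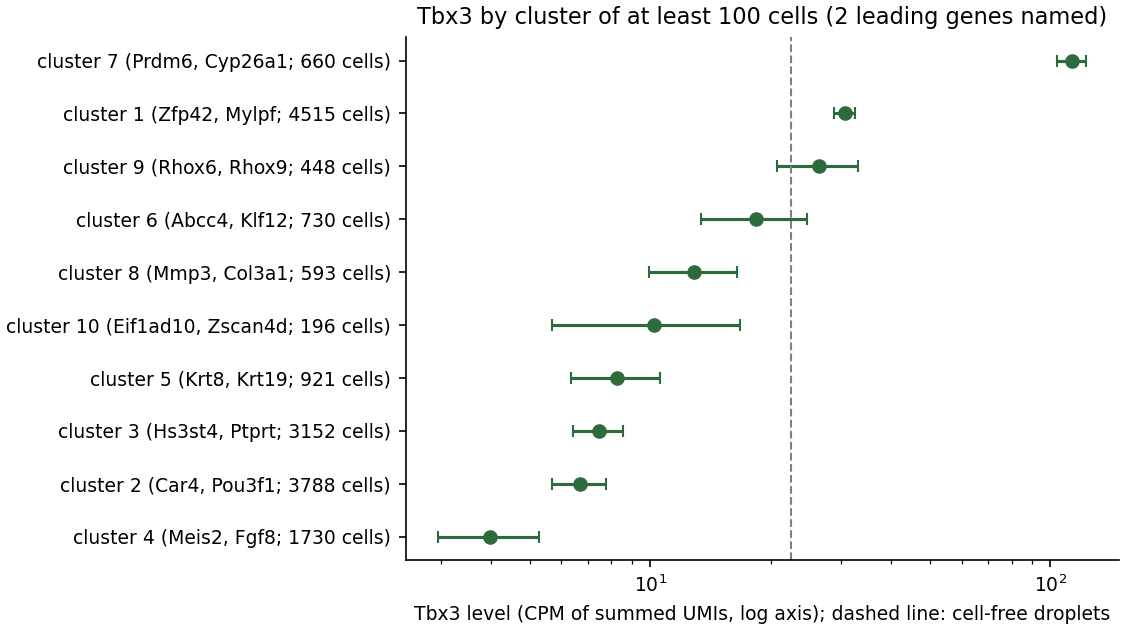
Tbx3 level (CPM of summed UMIs, log axis, with exact Poisson 95% intervals) in the 10 clusters of at least 100 cells, each named by its number and 2 leading genes; the dashed line marks cell-free droplets at 22.5 CPM. Cluster 7 stands at 113 CPM, clusters 1 and 9 at 30.6 and 26.4 CPM, and cluster 4 at 3.99 CPM.

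In the mesoderm-like cluster Tbx3 was high with or without the 3 marker genes. There, 351 cells of the mesodermal range had 131 CPM (116 to 147), and 147 cells with neither kind of marker still had 103 CPM (82.1 to 127). Those 147 cells carried 19.5% of the Tbx3 UMIs of all cells of neither kind, and the other 9309 had 5.99 CPM (5.38 to 6.65). In contrast, 68 cells of the mesodermal range lay in the Meis2 and Fgf8 cluster and had 9.01 CPM (2.45 to 23.1, from 4 UMIs). That cluster had 29.1 CPM of Rspo3 and 2.04 CPM of Mixl1. The splits by Mixl1, Mesp1 and Rspo3 above included such cells and were not repeated within a cluster.

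The naive range also differed between clusters. Its 3309 cells in the naive-like cluster had 33.5 CPM of Tbx3 (31.4 to 35.8), while the 513 cells of neither kind in that cluster had 14.6 CPM (10.6 to 19.6). Its 270 cells in the Rhox6 and Rhox9 cluster had 27.6 CPM (20.6 to 36.2). The 159 cells of the naive range in the Car4 and Pou3f1 cluster had 9.48 CPM and the 209 in the Hs3st4 and Ptprt cluster 15 CPM, and Scrublet marked 54.1% and 60.3% of those cells as doublets. In the shallow cluster, 104 cells of the naive range had 39.3 CPM (24.6 to 59.5), with 6.73% marked as doublets.

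Across the 10 clusters of at least 100 cells, the gene whose level was most like that of Tbx3 was Bmp4, a secreted BMP ligand. Pearson's r of log2(CPM + 1) was 0.945 for Bmp4, over 9600 genes that reached 20 CPM in some cluster. Bmp4 itself stood at 104 CPM in the mesoderm-like cluster, 34.8 CPM in the Rhox6 and Rhox9 cluster and 29.5 CPM in the naive-like cluster. The genes parted in the fibroblast-like cluster, where Bmp4 had 26.5 CPM and Tbx3 12.9 CPM. Stard8 followed with 0.918, Slc6a6, the taurine transporter, with 0.830 and Hs3st3b1, a heparan sulfate sulfotransferase, with 0.820. Gata4, a factor of endoderm and heart mesoderm, had 0.792 and Lifr, the LIF receptor, had 0.790. Mzt1 and the neuropilin gene Nrp2 closed the list at 0.778 and 0.769. The clusters come from 1 library and differ in depth and size, so r is given as a description only.

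The genes that set the ranges were less like Tbx3 by this measure. Mesp1 had an r of 0.637, Mixl1 0.618, Rspo3 0.420 and Zfp42 0.348. The naive factor Nanog had 0.170, and Pou5f1, which every pluripotent state expresses, had -0.488.

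Eomes and T, the T-box genes with the highest UMI counts in the mesodermal range, did not share the naive side of the Tbx3 pattern. Eomes, a T-box gene of streak, endoderm and trophoblast, had 197 CPM in the mesodermal range (182 to 214), 7.90 CPM in the naive range and 16.7 CPM in cells of neither kind. T, the brachyury gene, had 160 CPM (146 to 175), 5.07 CPM and 21.5 CPM in the same order. Both were thus lower in the naive range than in cells of neither kind, whereas Tbx3 was higher there. Tbx20, a heart and lateral plate gene, had 14.9 CPM in the mesodermal range, 0.881 CPM in the naive range and 1.87 CPM in cells of neither kind.

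Tbx2, the closest relative of Tbx3, was nearly undetected. It had 13 UMIs in the mesodermal range (4.29 CPM, 2.28 to 7.34), 14 in the naive range (0.374 CPM) and 38 in cells of neither kind (0.634 CPM). Tbx6, a paraxial mesoderm gene, had 4.62 CPM, 0.160 CPM and 0.384 CPM in those groups. Mga, which joins a T-box to a MAX-binding domain, was read throughout, with 118 CPM in the mesodermal range, 147 CPM in the naive range and 101 CPM in cells of neither kind. Tbx15 had 7.92 CPM, 1.87 CPM and 6.04 CPM. The other members, Tbx1, Tbx4, Tbx5, Tbx10, Tbx18, Tbx19, Tbx21, Tbx22 and Tbr1, each had at most 3 UMIs in the mesodermal range and at most 26 in the naive range. The antisense gene Tbx3os1 had 21 UMIs in the mesodermal range (6.93 CPM, 4.29 to 10.6), 45 in the naive range (1.20 CPM) and 46 in cells of neither kind (0.768 CPM). Of the 17 cells of the mesodermal range with a Tbx3os1 UMI, 12 also had a Tbx3 UMI.

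Cells with a Tbx3 UMI were then set against cells with none inside each range. In the mesodermal range these were 164 Tbx3-positive cells, with a median of 6495 UMIs, and 291 Tbx3-zero cells, with a median of 5544. Of 7276 genes with at least 20 CPM in either group, 105 (1.44%) were at least 2-fold higher in Tbx3-positive cells and 251 (3.45%) at least 2-fold lower, and the median log2 ratio of CPM + 1 was 0.01. A Tbx3-zero cell may still express the gene below the depth of its library. The counts of lists below are read against those shares and describe 1 library, and list medians cover every member, those under 20 CPM included.

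Genes of lateral plate and extraembryonic mesoderm were higher in Tbx3-positive mesodermal cells. Of the 16 genes on that list, 11 reached 20 CPM, 8 were at least 2-fold higher and none was at least 2-fold lower, with a median log2 ratio of 1.38. Msx2, a homeobox target of BMP signals, had 145 CPM in Tbx3-positive cells and 26.4 CPM in Tbx3-zero cells, a log2 ratio of 2.41 (1.96 to 2.88). Bmp4 had 158 CPM in Tbx3-positive cells and 52.8 CPM in Tbx3-zero cells. Hand1, a factor of extraembryonic mesoderm and heart, had 101 CPM in Tbx3-positive cells and 33.4 CPM in Tbx3-zero cells. The others were Hand2, Foxf1, Msx1, Tbx20 and Gata4, with log2 ratios from 1.31 for Hand2 to 2.40 for Foxf1.

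Blood and endothelial progenitor genes followed. Of 12 on that list, 6 reached 20 CPM and 4 were at least 2-fold higher, namely Kdr, Etv2, Tal1 and Runx1, with a list median of 1.01. Kdr, the VEGF receptor of these progenitors, had 126 CPM in Tbx3-positive cells and 36.6 CPM in Tbx3-zero cells, a log2 ratio of 1.76 (1.34 to 2.18). Of 14 BMP targets 8 reached 20 CPM. Msx1, Msx2 and the receptor decoy Bambi were at least 2-fold higher and none was at least 2-fold lower, with a median of 0.34. Of 14 WNT targets, Nkd1, Lgr5 and Dkk1 were at least 2-fold higher and T was at least 2-fold lower, with a median of 0.15.

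Primitive streak genes went both ways. Of 15 on that list, Eomes and Gsc were at least 2-fold higher and T, Fgf8 and Lefty2 at least 2-fold lower. The median was -0.53 over all 15 and 0.63 over the 10 that reached 20 CPM, so its sign turned on the members with few UMIs. T had 80.1 CPM in Tbx3-positive cells and 211 CPM in Tbx3-zero cells, a log2 ratio of -1.38 (-1.72 to -1.06). Fgf8, an FGF ligand of the streak, had 206 CPM in Tbx3-positive cells and 513 CPM in Tbx3-zero cells. Eomes ran the other way, with 326 CPM in Tbx3-positive cells and 116 CPM in Tbx3-zero cells. Fgf5 and Cldn6, from the primed epiblast list, and Dppa3 of 14 naive genes were at least 2-fold lower, and no gene of the naive list was at least 2-fold higher. Of 12 LIF and STAT3 genes, Lifr was at least 2-fold higher and Stat3 at least 2-fold lower, and of 12 primitive endoderm genes only Gata4 passed, being higher. None of the 5 core pluripotency genes passed the fold in either direction.

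Genes of other cell kinds also differed between Tbx3-positive and Tbx3-zero mesodermal cells. Of 12 fibroblast genes, Col1a2, Col3a1, Dcn and Mmp3 were at least 2-fold lower in Tbx3-positive mesodermal cells, and the list summed to 252 CPM there and 732 CPM in Tbx3-zero cells. Macrophage genes summed to 5.96 CPM and 3.77 CPM in the same order. Neuroectoderm genes summed to 274 CPM in Tbx3-positive cells and 439 CPM in Tbx3-zero cells, and Meis2 of that list was at least 2-fold lower. The mesodermal range also held cells of the fibroblast-like and of the Meis2 and Fgf8 clusters, so the comparison was repeated on its cells of the mesoderm-like cluster alone, 158 of them Tbx3-positive and 193 Tbx3-zero.

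Within that cluster 107 of 7063 genes (1.51%) were at least 2-fold higher in Tbx3-positive cells and 110 (1.56%) at least 2-fold lower. They included 70 of the 105 genes higher in the whole range and 76 of the 251 lower. Of the 16 lateral plate and extraembryonic genes, Hand1, Foxf1, Bmp4, Msx1, Msx2 and Tbx20 were at least 2-fold higher and Isl1 and Cdx2 at least 2-fold lower, with a median of 0.96. Hand2 at 0.87 and Gata4 at 0.95 no longer passed the fold. Of the blood and endothelial list Kdr and Runx1 still did, whereas Etv2 at 0.83 and Tal1 at 0.66 did not. Of the streak list Gsc was at least 2-fold higher and T, Fgf8 and Lefty2 at least 2-fold lower, while Eomes, with 344 CPM in Tbx3-positive cells and 172 CPM in Tbx3-zero cells, fell just short at a log2 ratio of 0.99. Of the BMP targets, Bambi at 0.93 also fell short. The fibroblast genes did not keep their direction, with Col1a1 and Fbln2 at least 2-fold higher and none lower. Meis2 of the neuroectoderm list stayed at least 2-fold lower, with 110 CPM in Tbx3-positive cells and 223 CPM in Tbx3-zero cells. The median of that list was -0.74.

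**Figure D4:**
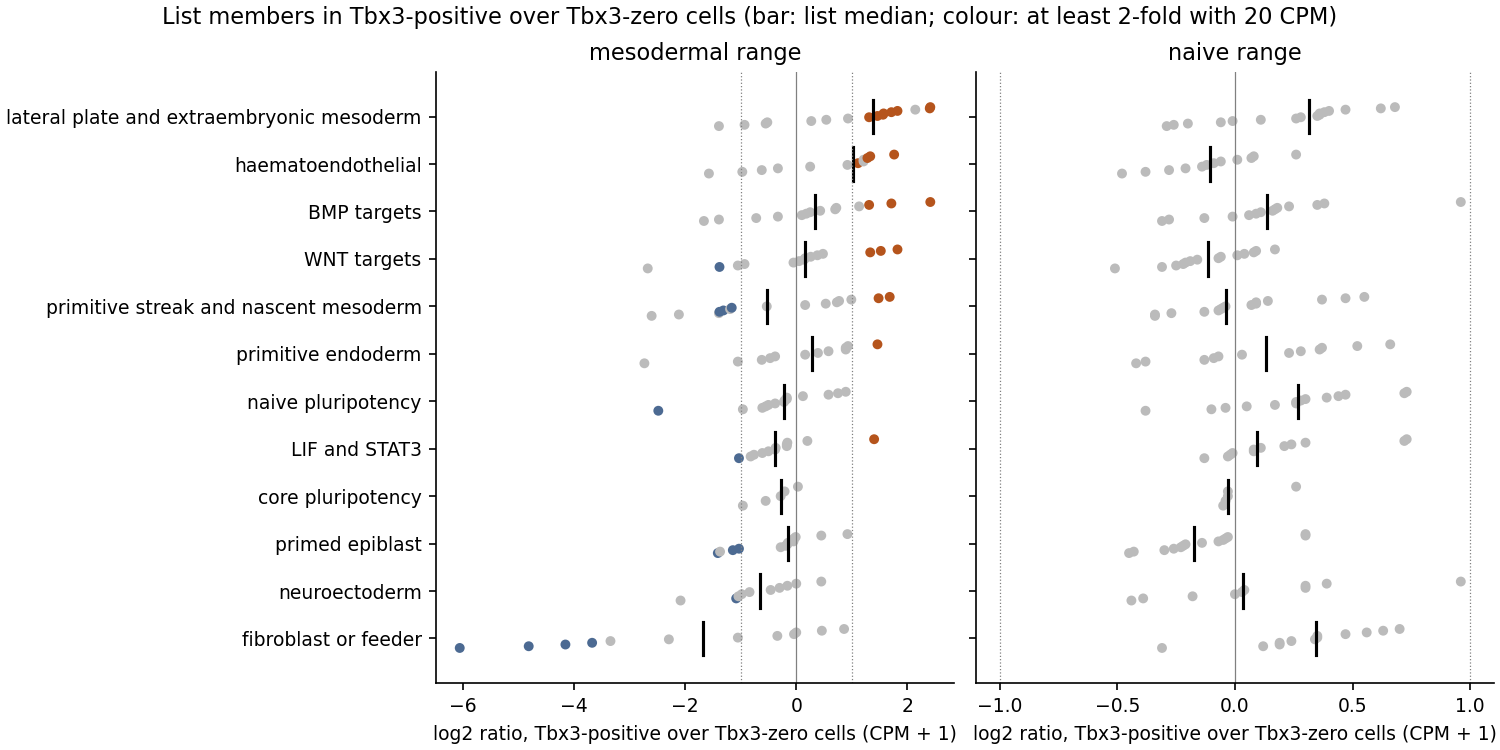
Log2 ratio of CPM + 1 in Tbx3-positive over Tbx3-zero cells for each member of 12 gene lists, in the mesodermal range (left) and the naive range (right, on a narrower axis); bars are list medians, coloured points have at least 20 CPM and at least a 2-fold difference, and dotted lines mark 2-fold. In the mesodermal range the lateral plate list has its median at 1.38 and the fibroblast list at -1.67; over the whole naive range no list member passes.

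By size of the ratio, the leading genes in Tbx3-positive mesodermal cells, of those with at least 50 CPM there, began with Pcsk5. This proprotein convertase gene had 311 CPM in Tbx3-positive cells and 37.7 CPM in Tbx3-zero cells, a log2 ratio of 3.01 (2.65 to 3.39). Asb4, Vstm2b and Msx2 followed with log2 ratios of 2.48, 2.42 and 2.41. Dpf3, Fgd5, Rgs5, Pdlim3, Pmp22 and Nrp1, a neuropilin that binds VEGF, had log2 ratios from 1.95 to 2.23. Pcsk5, Vstm2b and Asb4 were also among the 10 leading genes of the mesoderm-like cluster. This ranking took the whole mesodermal range, where 158 of 164 Tbx3-positive cells but 193 of 291 Tbx3-zero cells lay in that cluster. The part of this difference in the ratios, and in the shared genes, was not tested.

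Read from the side of the other genes, Tbx3 within the mesodermal range of the mesoderm-like cluster was, of the genes read, highest in cells with Foxf1, a forkhead gene of lateral plate mesoderm. The 24 cells with a Foxf1 UMI had 258 CPM of Tbx3 (188 to 347), against 121 CPM (106 to 136) in the 327 without. The 113 cells with Kdr had 198 CPM (170 to 229), against 87.1 CPM (72.2 to 104) without. The 111 cells with Msx2 had 197 CPM (167 to 229), against 93.6 CPM (78.5 to 111) without, and the 125 cells with Bmp4 had 188 CPM against 93.3 CPM without. By ratio the widest separation of the genes read was for Eomes, at a log2 ratio of 1.43, with 171 CPM of Tbx3 in cells with a UMI (150 to 193) and 62.7 CPM in cells without (46.8 to 82.2).

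T, Fgf8 and Pou5f1 marked mesodermal cells with less Tbx3. Cells with a T UMI had 87.2 CPM of Tbx3 (69.9 to 108), against 165 CPM (144 to 189) in cells without. Cells with Fgf8 had 94.2 CPM (78.2 to 112), against 180 CPM (154 to 209) without. Cells with Pou5f1 had 98.1 CPM (80.3 to 119), against 161 CPM (139 to 186) without. For Sox2 and Nanog the intervals of cells with and without a UMI overlapped. Depth differed in these splits too. Over the mesodermal range the median was 7370 UMIs in cells with Kdr, where Tbx3 was higher, and 5299 in cells without. It was 6760 UMIs in cells with Pou5f1, where Tbx3 was lower, and 5304 in cells without. The part of depth here was not tested.

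**Figure D5:**
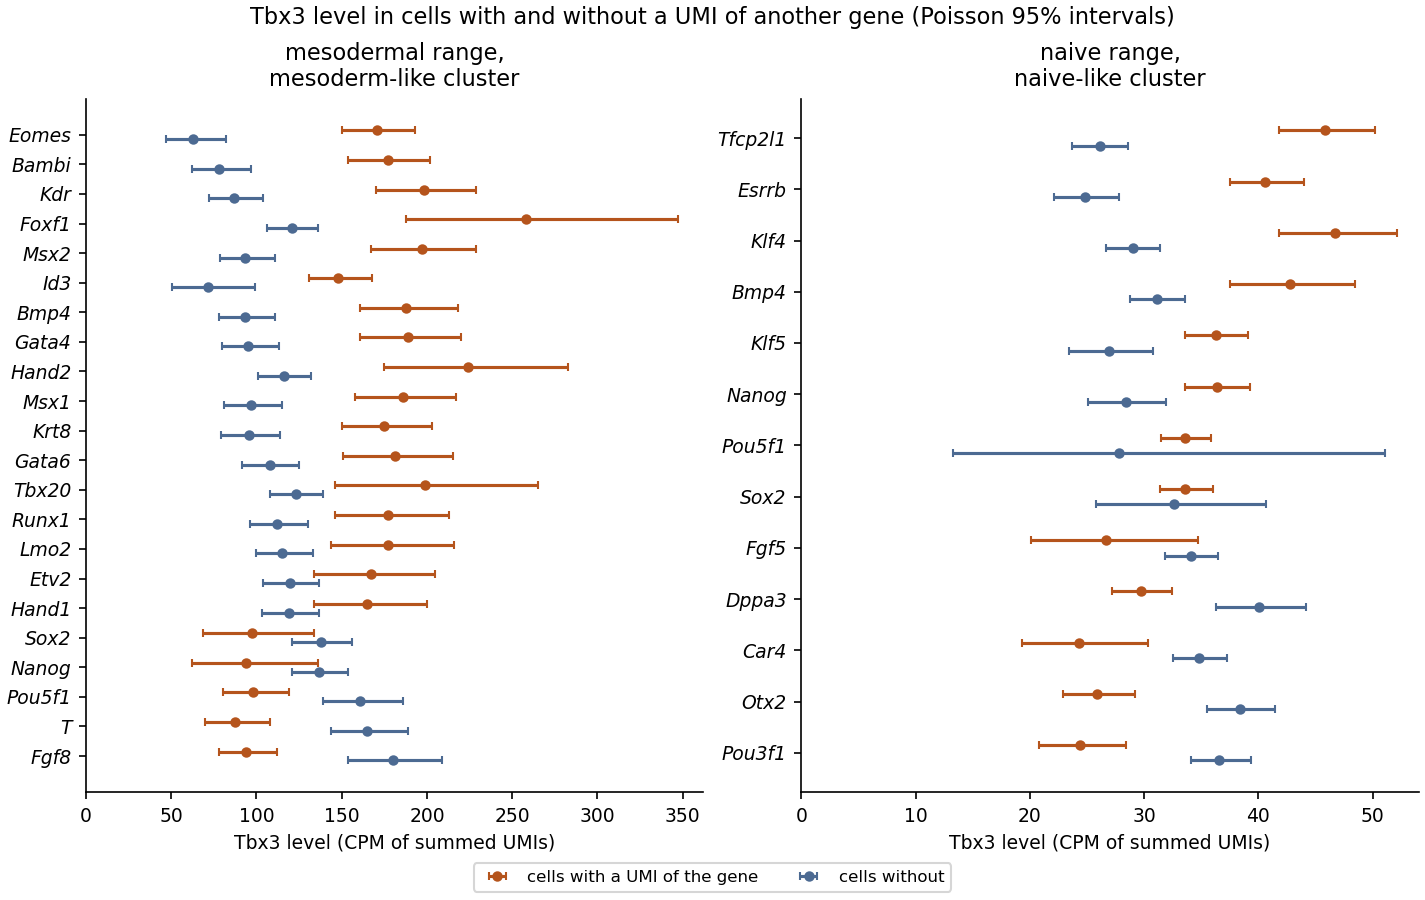
Tbx3 level (CPM of summed UMIs with exact Poisson 95% intervals) in cells with and without a UMI of another gene, in the mesodermal range of the mesoderm-like cluster (left) and the naive range of the naive-like cluster (right). In mesodermal cells Tbx3 is 198 CPM with Kdr and 87.1 CPM without, and 87.2 CPM with T and 165 CPM without; in naive cells it is 45.8 CPM with Tfcp2l1 and 26.1 CPM without.

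Inside the naive range far fewer genes differed between Tbx3-positive and Tbx3-zero cells by this measure. The summed UMIs were larger there, 7808828 in Tbx3-positive and 29648059 in Tbx3-zero cells, against 1173532 and 1856167 in the mesodermal range. Counting error of a ratio at 20 CPM was therefore smaller in the naive range. A single Tbx3 UMI was held by 582 of 794 Tbx3-positive naive cells and 89 of 164 mesodermal ones. The 794 Tbx3-positive cells had a median of 8614 UMIs and the 3490 Tbx3-zero cells 7452, and 19.1% and 18.1% of them were marked as doublets. Of 6585 genes with at least 20 CPM in either group, 1 (0.0152%) was at least 2-fold higher in Tbx3-positive cells and 0 (0%) were at least 2-fold lower. That gene, named here after its value was seen, was Calcoco2, an autophagy receptor, with 49.3 CPM in Tbx3-positive cells and 22.7 CPM in Tbx3-zero cells, a log2 ratio of 1.09. It was also among the leading genes of the Rhox6 and Rhox9 cluster. No member of any list passed the fold over the whole range, but a member under 20 CPM could not pass. In the naive list 13 of 14 genes reached 20 CPM. In the streak, blood and endothelial, and neuroectoderm lists 1 gene each did, and in the primitive endoderm and macrophage lists 0 did. The nearest list member at 20 CPM or more was Ncam1 of the neuroectoderm list, a cell adhesion gene. It had 39.4 CPM in Tbx3-positive cells and 19.8 CPM in Tbx3-zero cells, a log2 ratio of 0.96 (0.76 to 1.16). It passed within the naive-like cluster, with 39.8 CPM in Tbx3-positive cells and 19.4 CPM in Tbx3-zero cells. Among members under 20 CPM, which this ranking left out, that cluster had Gata3 at 1.07, Lama1 at 0.94 and Krt8 at 0.89. Nes of the neuroectoderm list went the other way there, at -0.78.

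After Ncam1, the next 2 list members by ratio at 20 CPM or more were naive factors. Tfcp2l1, a factor downstream of LIF and STAT3, had 85.3 CPM in Tbx3-positive cells and 51.0 CPM in Tbx3-zero cells, a log2 ratio of 0.73 (0.60 to 0.86). Klf4, a direct LIF target, had 60.4 CPM in Tbx3-positive cells and 36.4 CPM in Tbx3-zero cells, a log2 ratio of 0.72 (0.56 to 0.87). Among genes with at least 50 CPM, S100a13 at 0.79 stood ahead of these, and Aff1, Hmga2, Aard, Mylpf, Septin1, Fabp3 and Coil followed with 0.54 to 0.67. The 14 naive genes had a median of 0.27 and the 12 LIF and STAT3 genes 0.10, against 0.00 over all genes tested. Not every naive gene lay above 0: Dppa3, a gene of naive and germ cells, had 149 CPM in Tbx3-positive cells and 194 CPM in Tbx3-zero cells, a log2 ratio of -0.38 (-0.47 to -0.29). Sox2 was at -0.04 (-0.11 to 0.02).

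Tbx3 within the naive range of the naive-like cluster also varied with Tfcp2l1 and Klf4. The 1154 cells with a Tfcp2l1 UMI had 45.8 CPM of Tbx3 (41.8 to 50.2), against 26.1 CPM (23.7 to 28.6) in the 2155 without. With Klf4 it was 46.7 CPM (41.8 to 52.1), against 29.0 CPM (26.7 to 31.4) without. With Esrrb, an orphan nuclear receptor of the naive network, it was 40.6 CPM (37.5 to 44.0), against 24.8 CPM (22.1 to 27.8) without. Otx2 and Pou3f1, factors of the primed epiblast, went the other way, and so did the naive gene Dppa3. With Otx2 it was 25.9 CPM (22.9 to 29.2), against 38.4 CPM (35.5 to 41.5) without. With Pou3f1 it was 24.4 CPM (20.8 to 28.4), against 36.6 CPM (34.1 to 39.4) without. With Dppa3 it was 29.7 CPM (27.2 to 32.4), against 40.1 CPM (36.3 to 44.2) without.

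Bmp4, from the mesodermal set, was read here too. Naive-like cells with a Bmp4 UMI had 42.8 CPM of Tbx3 (37.5 to 48.5), against 31.1 CPM (28.8 to 33.6) without. For Sox2 and Pou5f1 the intervals of naive-like cells with and without a UMI overlapped. Cells with Tfcp2l1, where Tbx3 was higher, and cells with Otx2, where it was lower, were both deeper than cells without: over the naive range the median was 8233 UMIs with Tfcp2l1 and 7345 without, and 8982 with Otx2 and 7182 without. The part of depth in these differences was not tested.

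Genes reported in the literature as targets of Tbx3 went both ways. Of 12 such genes in the mesodermal range, Eomes was at least 2-fold higher and T, Cdkn2a, Dppa3 and Lefty1 at least 2-fold lower in Tbx3-positive cells, with a median of -0.67. Cdkn2a, a cell cycle inhibitor locus, had 7.67 CPM in Tbx3-positive cells and 35.6 CPM in Tbx3-zero cells. Within the mesoderm-like cluster only T and Lefty1 of these 5 genes still passed the fold, both lower. Eomes at 0.99 and Dppa3 at -0.64 did not pass there, nor did Cdkn2a, which held 9 UMIs in Tbx3-positive cells and 3 in Tbx3-zero cells. In the naive range 8 of the 12 reached 20 CPM and none passed.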

How the data were processed

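Per the file headers, the authors made the gene matrix with Cell Ranger (8.0.1); as deposited it gives raw UMI counts for 2578653 barcodes. Seurat is named without a version in the submitters' processing notes. Tag counts stand in the deposited tag table on a log10 scale, which was checked against the matrix, beside a tag call per called cell. For the genome build, the sources used here give none. Labels describe 1 channel per sample but the counts form 1 matrix, and the tags CMO311 and CMO312 match no label, so all cells were treated as 1 sample, with no test, standard error or p-value. Only 123 called cells had been given a tag.

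The gene minimum removed 3345 called cells and the mitochondrial maximum 4308, some of them the same cells, and kept cells held 121114764 UMIs. Levels are UMIs summed over a group, with exact Poisson 95% intervals; shares have exact binomial ones. Log2 ratios used a pseudocount of 1 CPM, with intervals from the exact binomial split of the summed counts. Calls of changes larger than 2-fold in genes of at least 50 CPM were tried on simulated counts. Those counts had no spread between cells and more UMIs than the mesodermal range. The intervals, and calls close to 2-fold or to 20 CPM, were not tried in this way. For a count of 0 the limit given is that of 3 counts. Thinning to 2000 UMIs left out 294 cells. Clusters came from scanpy 1.11.5 (Leiden, resolution 0.5, 2000 variable genes without S and G2/M phase genes, 30 components, 15 neighbours), under Python 3.11.15 and SciPy 1.17.1. Scrublet, at an expected rate of 0.1, marked 2145 kept cells (12.7%), which stayed in.

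Named genes are Tbx3, its 4 marker genes, the T-box family, the 8 genes most like Tbx3 across clusters, the 10 genes per range with the highest ratio at 50 CPM or more (provisional, mitochondrial and ribosomal names left out) and list members past 2-fold; a result that this rule would name is not reported here. Tbx3, the thresholds and the lists were chosen with earlier results of these data known, and list members named below the fold, or for their UMIs in the same cells, with values seen. The lists overlap and leave out Tbx3 and the marker genes in counts; Dux and Tbxt are not in the matrix, where brachyury is listed as T. Alternatives were other filters, thresholds, depth, denominator, pseudocount, removal of free RNA or doublets, other clusterings and, added after the data were seen, each range within its own cluster.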

Additional observations from a re-analysis of the deposited data

Results flagged for a closer look

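The tag oligos, which no comparison used, differed with Tbx3 in the mesodermal range. The median CMO312 count was 3447 UMIs in the 164 Tbx3-positive cells of that range and 1954 in the 291 Tbx3-zero cells, against a median of 340 and a 90th percentile of 478 UMIs in cell-free droplets. CMO312 exceeded CMO311 in 89.6% of the Tbx3-positive cells and 65.6% of the Tbx3-zero cells. In the mesoderm-like cluster lay 158 of the 164 Tbx3-positive cells but 193 of the 291 Tbx3-zero cells, and the tags were not read within it. Among cells of neither kind, the Tbx3-positive cells had a CMO312 median of 518.0 UMIs and the Tbx3-zero cells 419. In the naive range both kinds of cell had a median of 335, at the level of the cell-free droplets. The names of the tags match no sample label, so these values place no cell in either sample, and the differences were not tested.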

How the results depend on the processing

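None of the ratios below changed sign under any alternative, and the counts of genes have no sign to reverse. Leaving Tbx3 out of the variable genes gave the same mesoderm-like and naive-like clusters, since it was not among them. On the log2 scale, the mesodermal range over cells of neither kind was 3.59. It moved to 3.09 with lower thresholds and to 2.91 thinned to 2000 UMIs, with the lower thresholds applied to the thinned counts. It moved to 2.66 with a pseudocount of 10 CPM and to 4.24 with each range within its own cluster. That last alternative took cells of neither kind outside the mesoderm-like cluster, at 5.99 CPM, and so compared clusters. Inside the mesoderm-like cluster the mesodermal range had 131 CPM and cells of neither kind 103 CPM. Inside the naive-like cluster the naive range had 33.5 CPM and cells of neither kind 14.6 CPM. The mesodermal over the naive range was 1.72 and moved to 1.40, 1.43, 1.47 and 1.93 under the same 4 alternatives. The naive range over cells of neither kind was 1.88 and moved to 1.69, 1.48, 1.19 and 2.30 under them, to 2.03 with higher thresholds and to 2.06 without called doublets. The other alternatives left these ratios within counting error. Without called doublets the mesoderm-like cluster over the other cells moved to 3.09 (reported value 2.86) and the naive-like cluster to 1.33 (1.12). At resolution 1.0 the cluster closest to the naive-like one had 0.88. It held 2315 cells against 4515, so many naive-like cells then counted among the other cells. Counts of genes depended far more on the settings. Genes higher in Tbx3-positive mesodermal cells numbered 162 with lower thresholds, 166 with higher thresholds, 457 thinned, 43 at a minimum of 50 CPM and 290 at 5 CPM, against 105. Genes lower numbered 379 without doublets, 838 thinned, 73 at 50 CPM, 865 at 5 CPM and 110 within the own cluster, against 251. In the naive range genes higher numbered 2 without doublets, with lower or higher thresholds and within the own cluster, 49 thinned, 0 at 50 CPM and 6 at 5 CPM, against 1. Genes lower numbered 1 and 3 with lower and higher thresholds, 76 thinned and 3 at 5 CPM, against 0. Thinned counts rest on fewer UMIs per gene by construction. No paired analysis was possible because the groups share 1 pooled library. With 1 library there is no spread between replicates, most Tbx3-positive cells rest on 1 UMI, and a Tbx3-zero cell is not shown to lack the transcript.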
